A study of Mus musculus with 6 samples.

Results

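Genes of protein folding and quality control in the endoplasmic reticulum (ER) were followed in mouse natural killer (NK) cells grown with little or ample oxygen. A list of 32 genes was taken, made of chaperones, disulfide isomerases, the sensors of the unfolded protein response (UPR), genes of ER-associated degradation and subunits of the protein channel of the ER membrane. All 32 were found by symbol among the 56953 genes of the count files. The cells were splenic NK cells of wild-type C57BL/6 mice, cultured for 7 days in medium with recombinant human interleukin-2 at 1700 U/ml and 5% CO2. One group was kept at 20% oxygen (normoxia) and the other at 1% oxygen (hypoxia), with 3 libraries each that the labels number 1 to 3 as biological replicates. Whether a replicate is a mouse, a pool or a culture is not stated, so the p-values describe the spread between these libraries, which may be technical. The mice's age is not given.

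Secreted and membrane proteins enter the ER through the Sec61 channel, where chaperones led by BiP (the product of Hspa5) and disulfide isomerases fold them. Proteins that fail to fold are drawn back to the cytosol and destroyed. When unfolded protein builds up, the UPR sensors IRE1, ATF6 and PERK respond. IRE1 splices the mRNA of Xbp1 and ATF6 is cut to free a transcription factor, and both routes raise chaperone genes, whereas PERK phosphorylates eIF2 alpha, which slows translation and raises the transcription factor ATF4. NK cells load their granules through this compartment.

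Libraries held 55104810 to 55794698 estimated counts. Levels are CPM, that is counts relative to the library total and scaled with TMM, and fold changes are hypoxia over normoxia from edgeR's quasi-likelihood test, adjusted over 15591 genes with the Benjamini-Hochberg method and called at an adjusted p below 0.05. The first principal component (55.5% of the variance) separated the oxygen levels, and the second (22%) set both libraries numbered 1 apart from the other 4. Same-numbered libraries deviated together, so a fit with the replicate number as a block is given where it changes a call. The NK cell markers summed to 14700 to 17510 CPM in hypoxia and 15680 to 16900 CPM in normoxia, led by Gzmb. Of these 10 markers 2 fell (Klre1 and Eomes). With the block 5 were lower, Ncr1 (edgeR adjusted p = 0.00485), Klrk1 (0.0026) and Prf1 (0.00554) being added. It also called 2 higher, Nkg7 (0.00314) and Tbx21 (0.0407). The summed markers of 5 other lineages were higher in hypoxia. The T cell list (3 of 8 markers called higher, led by Cd3g in hypoxia and Cd28 in normoxia) summed to 256 to 276 CPM against 177 to 219 CPM. Blocking added Cd8b1 as higher (edgeR adjusted p = 0.0306). The basophil and mast cell list (3 of 7, led by Kit) summed to 383 to 437 CPM against 236 to 259 CPM. Its members Fcer1a and Ms4a2 were at 0 in every normoxia library and had 0 or 1 count in each hypoxia library. Hdc was not called. The macrophage and dendritic cell list (4 of 9, led by Itgax) summed to 361 to 435 CPM against 178 to 210 CPM, with C1qa at 0 in all 6 libraries. The neutrophil list (2 of 7, S100a8 and S100a9) reached at most 1.98 CPM in hypoxia against 0.324 CPM in normoxia, with Retnlg at 0 throughout. Its member Ly6g, too low to be tested, was the other way round, averaging 0.029 CPM in hypoxia against 0.118 CPM in normoxia without overlap. The B and plasma cell list (2 of 9, led by Sdc1) summed to 5.56 to 6.87 CPM against 2.38 to 3.22 CPM, with Tnfrsf17 at 0 in all 6 libraries, which allows up to about 0.054 CPM. The part of these markers in the results on ER genes was not tested. In such bulk libraries, fewer cells of a type and less RNA per cell cannot be told apart.

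After 7 days at 1% oxygen most ER folding genes stood close to their normoxia level. Of the 32 genes, all of which passed the filter on low counts, 3 rose (Calr, Sdf2l1 and Derl3) and 2 fell (Eif2ak3 and Herpud1). That is 15.6% of the list, where 20.9% of all genes tested were called, 11.2% higher and 9.72% lower. The median log2 fold change was 0.05 for the list and -0.0052 for all genes. In 5 genes every hypoxia library lay above every normoxia library and in 4 every one lay below, 9 of 32 together, where the groups of 38.3% of all genes did not overlap (19.6% higher in hypoxia, 18.7% lower). Only Derl3 differed by at least 1.5-fold, 3.1% of the list against 16.3% of all genes tested. Among genes averaging at least 5 CPM, the median size of the log2 fold change was 0.105 for 31 of the ER genes and 0.142 for all 9954 genes.

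With the replicate block 8 ER genes were higher and 4 lower, 37.5% of the list, where 39.2% of all genes were called, 19.2% higher and 20.0% lower. Those added were Hsp90b1, Dnajb9, Pdia4, Sel1l and Ssr1 as higher, and Selenos and Sec61a1 as lower. Scaling by library size alone gave 6 higher and 2 lower, and moved the share of all calls that were higher from 53.5% to 70.5%. Leaving out hypoxia replicate 2 or 3, or normoxia replicate 2, reduced the number called higher to 1.

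**Figure D1:**
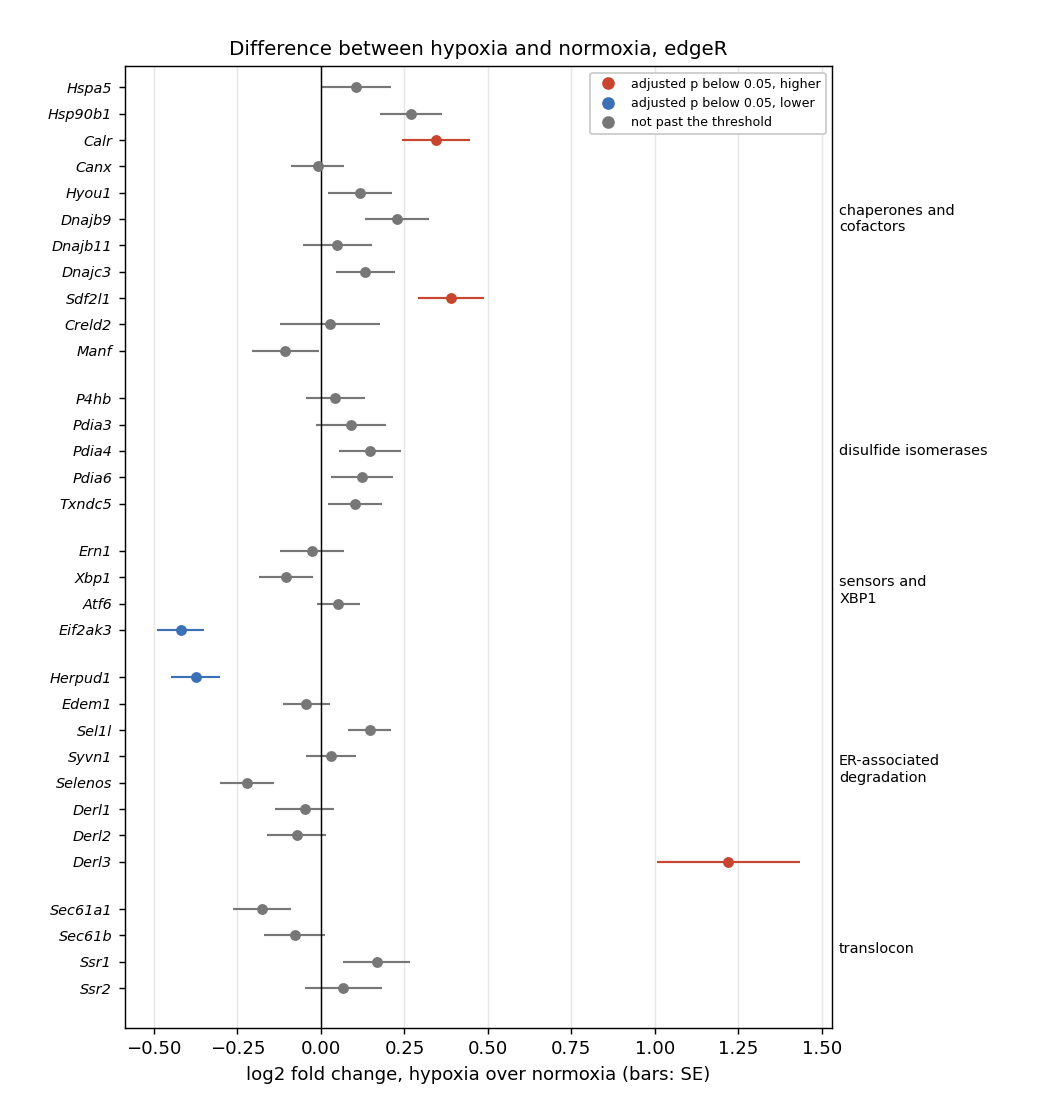
Log2 fold change, hypoxia over normoxia (x axis), of the 32 ER genes grouped by role (y axis), as points with bars of 1 SE from edgeR on 3 libraries per group. Red and blue points passed an adjusted p of 0.05 as higher or lower and grey points did not; Derl3 at 1.22 lies far to the right of the other genes, which lie between -0.42 and 0.39.

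The promoters of these genes are shown first, since some genes of this group are known to share an element there. The ER stress response element (ERSE), bound by ATF6 with NF-Y, was searched as CCAAT and CCACG with any 9 bases between them, on both strands, from 250 bases before to 50 bases after each start in RefSeq windows (build GRCm38.p6). Windows were held for 26 of the 32 genes. Of these, 9 carried a match (34.6%), against 37 of 27025 genes with a window (0.137%). Since the element was already known from genes of this group, these shares are a description and not a test. The matches are written below in the direction of the motif, with its fixed ends in capitals. The strand is given relative to the gene, and the distance is that of the match's outermost base, the one farthest from the start, which is the first written base on the same strand and the last on the opposite strand.

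Calr, 162 bases upstream, opposite strand: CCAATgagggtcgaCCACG
Canx, 145 bases upstream, same strand: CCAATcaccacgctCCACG
Creld2, 126 bases upstream, opposite strand: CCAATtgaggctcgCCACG
Derl3, 156 bases upstream, opposite strand: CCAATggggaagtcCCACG
Dnajc3, 105 bases upstream, same strand: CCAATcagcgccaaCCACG
Hsp90b1, 107 bases upstream, opposite strand: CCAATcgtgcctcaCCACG
Hsp90b1, 212 bases upstream, same strand: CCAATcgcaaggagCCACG
Hspa5, 65 bases upstream, same strand: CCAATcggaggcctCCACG
Pdia6, 98 bases upstream, same strand: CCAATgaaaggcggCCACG
Syvn1, 44 bases upstream, same strand: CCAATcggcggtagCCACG

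Hsp90b1 carried a pair of matches, and the spacer between the fixed ends differed in all of these genes. The 9 genes with a match had log2 fold changes from -0.01 in Canx to 1.22 in Derl3 with a median of 0.122, and 2 of them rose. The 17 genes with a window and no match had a median of 0.042, with 1 gene higher and 2 lower. The 6 genes without a window had a median of 0.001. Most genes with a match were chaperone genes, and the median of all 11 chaperone genes, with or without a match, was 0.117. A match describes letters only, and these medians were not tested.

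The 250 bases before the start are given for the 5 called genes and for Hsp90b1, called with the replicate block. The other genes that the block added are not printed. Of these, Dnajb9, Pdia4, Sel1l, Ssr1 and Selenos had a window and no ERSE match, and Sec61a1 had no window. Capitals mark the ERSE (reversed where it runs from CGTGG to ATTGG), the related ERSE-II (ATTGG and CCACG with any 1 base between them) and the C/EBP-ATF element (TGATGCAA, here in reverse). Herpud1, which fell, held an ERSE-II and a C/EBP-ATF element and no ERSE. Sdf2l1, which rose, and Eif2ak3, which fell, held none of these elements in their windows.

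Calr, chr8:84846932-84847181, minus strand: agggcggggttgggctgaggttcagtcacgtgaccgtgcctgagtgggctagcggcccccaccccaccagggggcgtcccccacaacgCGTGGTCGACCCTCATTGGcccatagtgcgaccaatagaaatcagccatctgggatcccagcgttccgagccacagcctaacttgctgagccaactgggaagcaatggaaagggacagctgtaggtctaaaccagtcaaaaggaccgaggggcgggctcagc
Hsp90b1, chr10:86705445-86705694, minus strand: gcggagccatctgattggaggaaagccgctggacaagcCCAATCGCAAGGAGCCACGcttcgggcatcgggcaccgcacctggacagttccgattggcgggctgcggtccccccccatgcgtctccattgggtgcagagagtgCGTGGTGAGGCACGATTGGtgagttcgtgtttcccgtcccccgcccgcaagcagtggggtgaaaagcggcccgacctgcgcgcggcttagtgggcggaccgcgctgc
Derl3, chr10:75893148-75893397, plus strand: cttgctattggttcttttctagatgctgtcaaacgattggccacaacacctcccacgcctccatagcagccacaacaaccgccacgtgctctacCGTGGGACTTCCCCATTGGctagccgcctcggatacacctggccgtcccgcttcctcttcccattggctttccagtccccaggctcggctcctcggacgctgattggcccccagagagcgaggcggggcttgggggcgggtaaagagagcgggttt
Herpud1, chr8:94386179-94386428, plus strand: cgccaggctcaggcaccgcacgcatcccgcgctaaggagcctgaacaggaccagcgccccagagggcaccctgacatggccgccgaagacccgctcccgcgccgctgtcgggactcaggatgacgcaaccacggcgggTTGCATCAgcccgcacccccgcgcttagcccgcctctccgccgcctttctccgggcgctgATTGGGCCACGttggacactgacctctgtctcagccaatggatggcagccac
Sdf2l1, chr16:17132384-17132633, minus strand: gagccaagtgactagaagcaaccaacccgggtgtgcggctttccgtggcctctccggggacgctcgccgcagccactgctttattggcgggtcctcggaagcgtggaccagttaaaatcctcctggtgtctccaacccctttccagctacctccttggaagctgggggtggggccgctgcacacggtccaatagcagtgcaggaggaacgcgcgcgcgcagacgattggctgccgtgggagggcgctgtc
Eif2ak3, chr6:70844265-70844514, plus strand: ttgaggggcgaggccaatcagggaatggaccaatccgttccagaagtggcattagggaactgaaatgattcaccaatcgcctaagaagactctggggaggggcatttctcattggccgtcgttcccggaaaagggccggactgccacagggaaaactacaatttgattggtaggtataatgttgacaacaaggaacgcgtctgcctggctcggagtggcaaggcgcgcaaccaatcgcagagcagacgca

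ERSE-II was found in 2 of the 26 genes (Dnajb11 and Herpud1) and in 0.0444% of all genes, and the C/EBP-ATF element in 1 of the 26 (Herpud1) and in 1.03% of all genes. Of the 8 genes with a window in the PERK arm, a further list described below, 3 held the C/EBP-ATF element (Atf3, Chac1 and Nupr1). The core of the UPR element, TGACGTGG, was found in Txndc5 and in 0.714% of all genes. The shorter HIF core ACGTG, which lies inside TGACGTGG, was found in 11 of the 26 genes (42.3%) and in 21.8% of all genes.

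Per length of transcript, the mRNAs of Calr, Hsp90b1, Hspa5 and P4hb were the most abundant of the 32. Calr, which encodes the lectin chaperone calreticulin, averaged 744 CPM per kb in hypoxia and 586 CPM per kb in normoxia. Hsp90b1 (GRP94, the HSP90 of the ER) averaged 572 and 475 CPM per kb, Hspa5 (BiP) 385 and 358 CPM per kb, and P4hb (protein disulfide isomerase) 312 and 303 CPM per kb. At the other end, Derl3 averaged 0.849 and 0.364 CPM per kb and Ern1 6.63 and 6.75 CPM per kb. The length taken was that of the longest coding transcript of each gene. P4hb and Pdia3 (311 and 292 CPM per kb) did not differ beyond their spread.

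**Figure D2:**
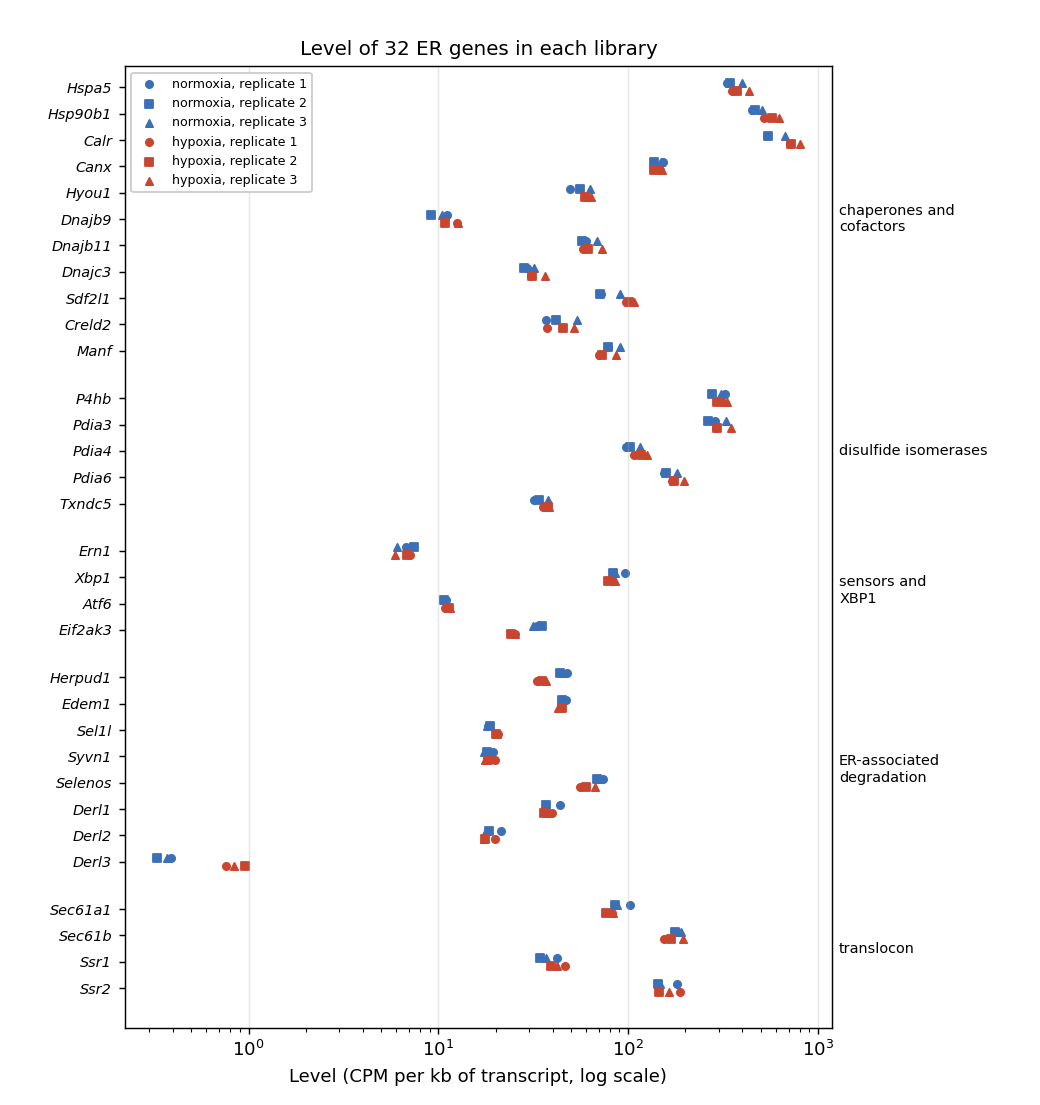
Level of each ER gene in each library, in CPM per kb of the longest coding transcript on a log axis, grouped by role; blue is normoxia, red is hypoxia and the marker shape is the replicate number. Levels run from Derl3, below 1, to Calr, with red and blue points of most genes side by side.

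Calr measured 1556, 1568 and 1753 CPM in hypoxia against 1177, 1195 and 1468 CPM in normoxia. All 3 hypoxia libraries lay above all 3 normoxia libraries. Its log2 fold change was 0.34 (SE 0.10, edgeR adjusted p = 0.0401), and 3 of 3 pairs were higher. The call is weak: leaving out any library other than normoxia replicate 3 gave an edgeR adjusted p of 0.0720 to 0.150. A pseudogene, Calr-ps, is annotated, and it can share estimated counts with Calr.

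Sdf2l1, a partner of the ER chaperone complex that keeps unfolded proteins soluble, measured 108, 112 and 119 CPM in hypoxia against 79.4, 79.1 and 100 CPM in normoxia. The groups did not overlap, although normoxia replicate 3 came near the hypoxia range. It rose 1.31-fold (edgeR log2 fold change 0.39 with SE 0.10, adjusted p = 0.0215). The call was lost on leaving out hypoxia replicate 2 (edgeR adjusted p = 0.0690), hypoxia replicate 3 (0.0856) or normoxia replicate 2 (0.0943).

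Hsp90b1 measured 1469, 1618 and 1763 CPM in hypoxia against 1263, 1321 and 1438 CPM in normoxia. These groups did not overlap either, with hypoxia replicate 1 close above normoxia replicate 3. Its log2 fold change of 0.27 (SE 0.09) missed the threshold in edgeR (adjusted p = 0.0647) and passed it in the blocked fit (adjusted p = 0.00153). Of 14 other settings, the block included, 5 called it, with adjusted p up to 0.193 over the 14. The rest of the 5 were library size alone (edgeR, 0.0197), the DESeq2 Wald test (0.0287), a filter at a mean of 5 CPM (edgeR, 0.0424) and omission of both libraries numbered 1 (edgeR, 0.0408).

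Hspa5, the marker most often read as a sign of ER stress, measured 1291, 1367 and 1586 CPM in hypoxia against 1213, 1266 and 1469 CPM in normoxia. The groups overlapped, and the spread within each was wider than the distance between their means. Its log2 fold change was 0.10 (SE 0.10, edgeR adjusted p = 0.537).

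The other 7 genes of this group had log2 fold changes from -0.11 in Manf, a secreted ER stress factor, to 0.23 in Dnajb9, an ER co-chaperone of BiP. None was called by edgeR without the block, and Dnajb9 was with it (adjusted p 0.00609). Canx, the membrane-bound lectin chaperone paired with calreticulin, measured 621 ± 31.2 CPM in hypoxia against 625 ± 36.1 CPM in normoxia (SD, n = 3). Hyou1, Dnajb11, Dnajc3 and Creld2, which encode further chaperones and co-chaperones, lay between 0.03 and 0.13 in log2 fold change.

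The disulfide isomerases lay near their normoxia levels. P4hb measured 888, 837 and 950 CPM in hypoxia against 928, 790 and 880 CPM in normoxia, with overlap of the groups. Pdia3, the isomerase that works with calnexin and calreticulin, Pdia4, Pdia6 and Txndc5 had log2 fold changes of 0.09, 0.15, 0.12 and 0.10. None of the 5 was called by edgeR, DESeq2 or limma-voom, and 0 had an unadjusted edgeR p below 0.05; Pdia4 passed in the blocked fit (edgeR adjusted p = 0.0317). Within numbered pairs, 4 of these 5 genes were higher in hypoxia in 3 of 3 pairs, P4hb being the exception.

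The chaperone and isomerase genes varied together from replicate to replicate. In both groups the library numbered 3 was the highest for 9 of 11 chaperone genes and 4 of 5 isomerase genes. Over all 32 genes this held for 14 (43.8%), where it held for 16.8% of all genes tested. For Hspa5 the difference between normoxia replicates 1 and 3 was thus larger than that between the mean levels of the groups (1415 CPM in hypoxia, 1316 CPM in normoxia). The summed level of the 11 chaperone genes was 5863, 6084 and 6819 CPM in hypoxia replicates 1 to 3 and 5165, 5242 and 6030 CPM in normoxia, so that normoxia replicate 3 lay inside the hypoxia range. Over the 32 genes, 16 were higher in hypoxia in all 3 pairs (50.0%, against 30.9% of all genes tested) and 7 were lower in all 3 pairs (21.9%, against 32.5%).

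**Figure D3:**
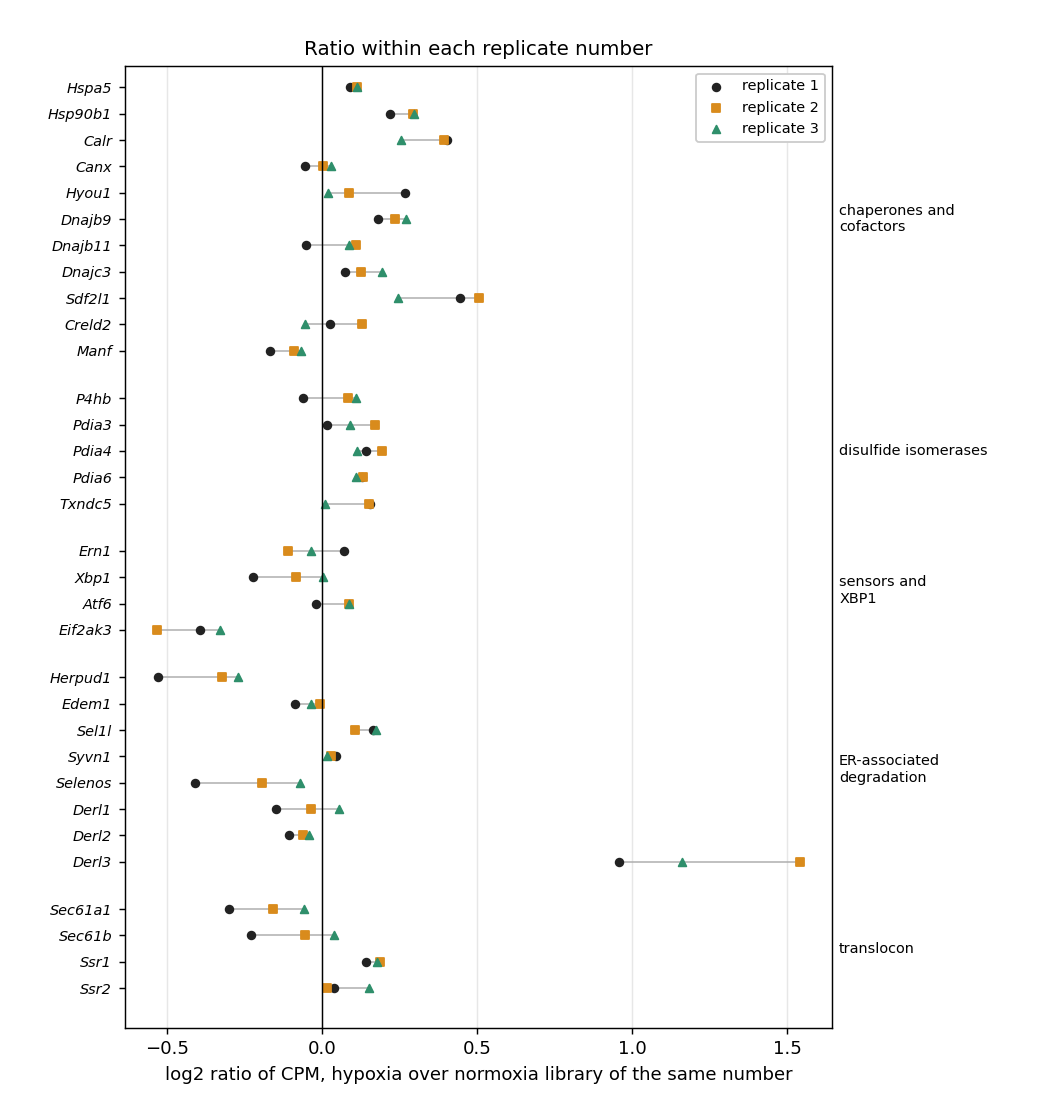
Log2 ratio of hypoxia to normoxia CPM within each replicate number (x axis) for the 32 ER genes (y axis); each marker is a pair of libraries and the grey line joins the 3 pairs of a gene. Most chaperone and isomerase genes lie just right of 0, Eif2ak3 and Herpud1 lie left of it in every pair, and Derl3 lies between 0.958 and 1.54.

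Among the 4 genes of the UPR sensors and Xbp1, that of PERK alone passed the test. Eif2ak3, which encodes PERK, measured 114, 110 and 114 CPM in hypoxia against 150, 159 and 143 CPM in normoxia. The hypoxia libraries were nearly equal and all lay below the normoxia libraries. It fell by 0.42 on the log2 scale (SE 0.07, edgeR adjusted p = 0.00281), and it was called in all 14 other settings tried.

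Ern1, the gene of IRE1, measured 49.3, 47.6 and 41.2 CPM in hypoxia against 47.0, 51.4 and 42.3 CPM in normoxia. Replicate 3 was the lowest in both groups and the groups overlapped (edgeR log2 fold change -0.03 with SE 0.10, adjusted p = 0.883). Xbp1, whose mRNA IRE1 splices, measured 175, 167 and 182 CPM in hypoxia against 205, 177 and 182 CPM in normoxia. Hypoxia replicate 3 lay within the normoxia range and the other hypoxia libraries below it (edgeR log2 fold change -0.10 with SE 0.08, adjusted p = 0.415). Counts per gene do not tell spliced from unspliced Xbp1 mRNA. Atf6, the gene of the membrane-bound factor ATF6, measured 78.5, 82.6 and 83.5 CPM in hypoxia against 79.6, 77.7 and 78.6 CPM in normoxia (edgeR log2 fold change 0.05 with SE 0.06, adjusted p = 0.627). Activation of IRE1, ATF6 and PERK takes place on the proteins, which were not measured.

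Of the 8 genes of ER-associated degradation 1 rose and 1 fell. Herpud1 encodes HERP, a membrane protein that helps to assemble the degradation complex. It measured 64.2, 68.2 and 72.1 CPM in hypoxia against 92.8, 85.4 and 87.0 CPM in normoxia, with a clear gap between the groups. It fell by 0.38 on the log2 scale (SE 0.07, edgeR adjusted p = 0.00558), and all 14 other settings called it lower.

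Derl3, the derlin best known from secretory cells, was rare, with 57 to 73 counts per library in hypoxia and 24 to 27 in normoxia. That corresponds to 0.999, 1.26 and 1.10 CPM in hypoxia against 0.514, 0.435 and 0.494 CPM in normoxia, with every hypoxia library well above every normoxia library. It rose 2.33-fold (edgeR log2 fold change 1.22 with SE 0.21, adjusted p = 0.00349) and was called in the 13 other settings that tested it. Beside it, Sdc1, a plasma cell marker, rose from 2.10 ± 0.452 to 5.22 ± 0.782 CPM (SD, n = 3, edgeR adjusted p = 0.0011). Of the other plasma cell markers, Tnfrsf17 was at 0 throughout, Mzb1 was at 0 in hypoxia and had 3 or 4 counts per normoxia library, and Jchain measured 0.0757 ± 0.0357 CPM in hypoxia against 0.104 ± 0.0827 CPM in normoxia.

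Derl1 and Derl2, the derlins that most cells express, had log2 fold changes of -0.05 and -0.07 and were not called. Neither were Syvn1, the ubiquitin ligase HRD1 (0.03), and Edem1, a lectin that picks out misfolded glycoproteins (-0.04). Sel1l, the partner of HRD1, measured 129, 127 and 129 CPM in hypoxia against 116, 119 and 114 CPM in normoxia, without overlap (log2 fold change 0.15, edgeR adjusted p = 0.144 and, blocked, 0.0275). Selenos, a selenoprotein of the same complex, averaged 72.3 ± 6.54 CPM in hypoxia against 84.3 ± 3.48 CPM in normoxia (log2 fold change -0.22, edgeR adjusted p = 0.0817 and, blocked, 0.0135).

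None of the 4 genes of the protein channel was called by edgeR without the block, by DESeq2 or by limma-voom, and 0 had an unadjusted edgeR p below 0.05. Sec61a1, the pore subunit, measured 257 ± 11.9 CPM in hypoxia against 290 ± 28.4 CPM in normoxia, without overlap. Ssr1, a subunit of the translocon-associated complex, averaged 397 ± 35.5 CPM in hypoxia against 354 ± 37.8 CPM in normoxia. They passed in opposite directions in the blocked fit, with edgeR adjusted p of 0.0301 for Sec61a1 and 0.0170 for Ssr1. Sec61b and Ssr2 had log2 fold changes of -0.08 and 0.07.

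Most genes listed for the PERK arm had lower mRNA in hypoxia, as PERK itself did, and a link between them was not tested. Of 9 genes of the PERK arm 7 fell and 0 rose in edgeR, DESeq2 and limma-voom, where 9.72% of all genes tested fell in edgeR. At an unadjusted edgeR p below 0.05, 8 of the 9 fell and 0 rose. Most of these genes answer to ATF4, which other eIF2 alpha kinases also raise, and lower ATF4 targets of amino acid supply were already known in these libraries when the list was written. Their median log2 fold change was -0.83, and all 9 were lower in all 3 pairs.

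Atf4 itself measured 290, 259 and 277 CPM in hypoxia against 541, 463 and 460 CPM in normoxia. Every hypoxia library lay far below every normoxia library. It fell by 0.83 on the log2 scale (SE 0.09, edgeR adjusted p = 0.000258). Nupr1, a small stress-induced chromatin protein, was rare but fell furthest, from 2.46, 1.81 and 1.99 CPM in normoxia to 0.333, 0.346 and 0.285 CPM in hypoxia (edgeR log2 fold change -2.69 with SE 0.22, adjusted p = 5.17e-05).

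Ddit3, which encodes the pro-apoptotic factor CHOP, measured 8.53, 9.63 and 9.71 CPM in hypoxia against 12.9, 12 and 10.7 CPM in normoxia. The groups came close without overlapping. It fell by 0.35 on the log2 scale (SE 0.10, edgeR adjusted p = 0.0367), but the adjusted p was 0.0602 to 0.120 without each hypoxia library, normoxia replicate 1 or normoxia replicate 2, and 0.0886 with scaling by library size alone. Ppp1r15a (GADD34), which recruits a phosphatase to eIF2 alpha, fell from 89.4 ± 11.1 to 63.2 ± 4.26 CPM (edgeR adjusted p = 0.00553). Atf3, Trib3 and Chac1 also fell. Ppp1r15b, the constitutive counterpart of GADD34, had a log2 fold change of -0.17 and an edgeR adjusted p of 0.127, or 0.0233 when blocked, and Eif2s1, the gene of eIF2 alpha, was not called (-0.08).

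**Figure D4:**
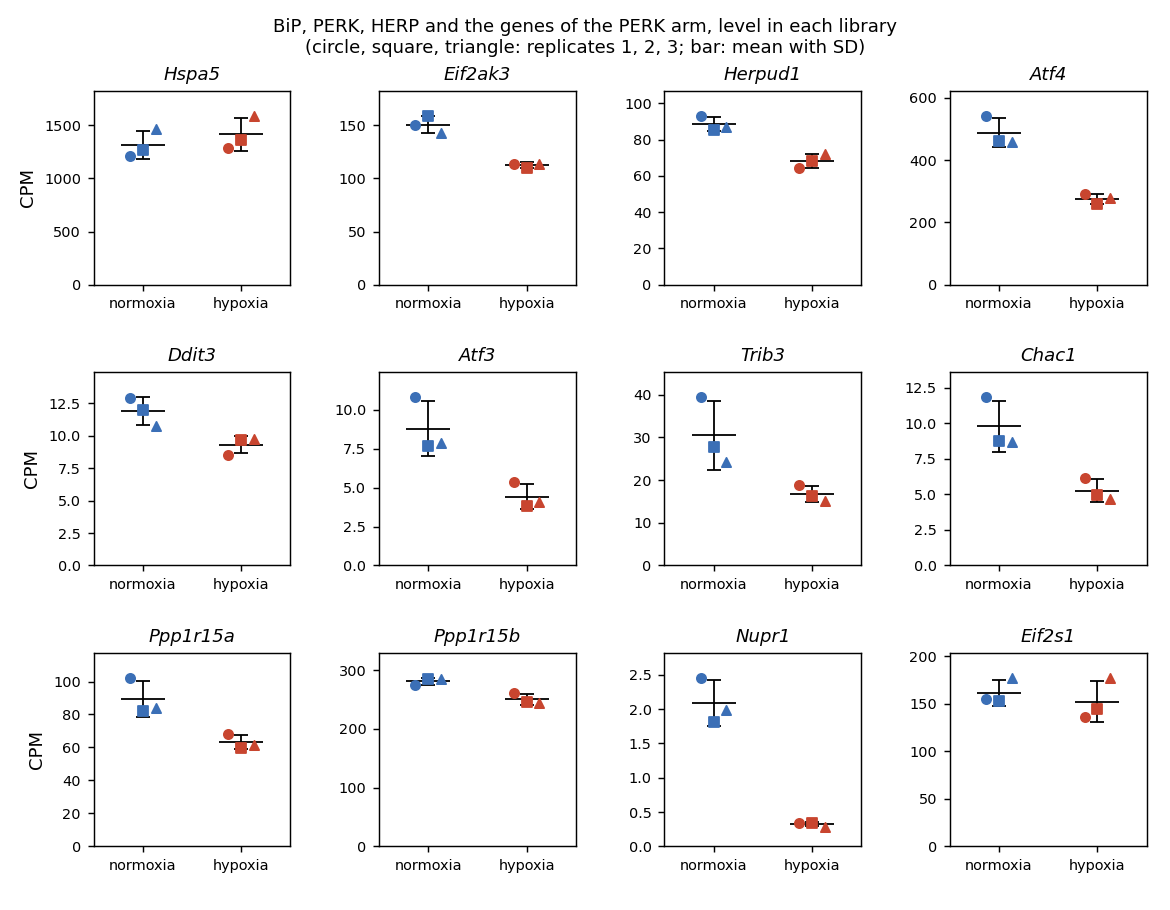
Level in CPM (y axis, from 0) of Hspa5, Eif2ak3, Herpud1 and the 9 genes of the PERK arm in each library, with blue for normoxia, red for hypoxia and bars for the mean with SD. Hspa5 overlaps between the groups, whereas all hypoxia points of Eif2ak3, Herpud1 and Atf4 lie below the normoxia points.

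Of 91 further genes listed, the PERK arm included, 90 were found and 88 tested, of which 5 rose and 9 fell, 7 of the latter in the PERK arm. That is 15.9% of those tested, where 20.9% of all genes were called. In the blocked fit 14 were higher and 19 lower, 37.5% against 39.2% of all genes. The median log2 fold change of the 88 was -0.017. The list of oxidative folding and the lectin cycle had 2 of 17 higher, Dnajc10, an ER disulfide reductase (edgeR log2 fold change 0.37 with SE 0.07, adjusted p = 0.0039), and Qsox1, a sulfhydryl oxidase (0.43, SE 0.11, edgeR adjusted p = 0.0204). Qsox1 lost its call on omitting replicate 1 or 2 of hypoxia, or 2 or 3 of normoxia (edgeR adjusted p of 0.0583 to 0.0659). Ero1a, the oxidase that recharges protein disulfide isomerase and a known HIF target, measured 789, 643 and 610 CPM in hypoxia against 972, 613 and 570 CPM in normoxia. Both libraries numbered 1 were the highest of their group, and the groups overlapped (edgeR adjusted p = 0.816). Blocking added Mogs (log2 fold change -0.26, edgeR adjusted p = 0.00199) and Prkcsh (-0.19, 0.00749), which encode glucosidase I and a subunit of glucosidase II, as lower.

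Of 15 other ER chaperone genes 2 rose. Kdelr3, a receptor that returns escaped chaperones to the ER, rose from 4.68 ± 0.643 to 7.02 ± 0.505 CPM, with an edgeR adjusted p of 0.0118 (0.0571 without normoxia replicate 2). Cnpy3, a chaperone of Toll-like receptors, rose from 35.8 ± 1.29 to 42.0 ± 1.38 CPM (edgeR adjusted p = 0.0416). Leaving out any 1 library gave Cnpy3 an adjusted p of 0.0555 to 0.138. When blocked, edgeR also called Sil1, an exchange factor of BiP (log2 fold change 0.19, adjusted p = 0.0124), and Kdelr2 (0.17, 0.0122) as higher. It called Fkbp11 (-0.51, 0.0389) and Cnpy2 (-0.19, 0.0191) as lower.

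Of 18 further degradation genes Edem3, a mannosidase, rose (edgeR log2 fold change 0.28 with SE 0.07, adjusted p = 0.0148) and Aup1, a ubiquitin ligase adaptor, fell (-0.34, SE 0.10, edgeR adjusted p = 0.0336). Edem3 was not called without hypoxia replicate 1 (0.0571) or normoxia replicate 2 (0.0643), nor Aup1 on omitting replicate 2 or 3 of hypoxia, or 1 or 2 of normoxia (0.0582 to 0.142). The blocked edgeR fit further called Ube2j1, a ubiquitin-conjugating enzyme (log2 fold change 0.24, adjusted p = 0.00301), March6, a ubiquitin ligase (0.20, 0.006), and Os9, a lectin of the HRD1 complex (0.15, 0.0348), as higher and Herpud2 (-0.18, 0.0183) as lower.

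Of 15 genes of signal sequence handling 1 was called without the block. Srp68, a subunit of the signal recognition particle, fell (-0.21, SE 0.07, edgeR adjusted p = 0.0481, and 0.0592 to 0.219 with any 1 library left out). With the block edgeR called 3 more as lower, Ssr3 of the translocon-associated complex (log2 fold change -0.27, adjusted p = 0.00391), Spcs2 of the signal peptidase (-0.22, 0.0152) and Srpr of the signal recognition particle receptor (-0.14, 0.0417). Spcs3, also of the signal peptidase, was called higher (0.22, 0.00443). Of the 8 oligosaccharyl transferase genes 0 were called by edgeR, DESeq2 or limma-voom and 0 had an unadjusted edgeR p below 0.05, while Stt3a, a catalytic subunit, was higher in the blocked fit (log2 fold change 0.15, edgeR adjusted p = 0.0383). Of 6 genes of the ATF6 family and its proteases edgeR called 0, with 1 at an unadjusted p below 0.05, and DESeq2 and limma-voom called 1 as higher, Creb3l1. The blocked edgeR fit called Creb3l1 (adjusted p = 0.00253) and Atf6b (0.0101) higher and Creb3l2 (0.0183) lower.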

How the data were processed

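The 6 libraries, 3 per group, came from cultured splenic NK cells of mice. The authors deposited estimated counts per Ensembl gene, which are not normalized. Per the submitters' processing notes Trim Galore 0.6.4, kallisto 0.4.6, edgeR 3.17 and build GRCm39 were used, with no settings or annotation given in the sources used here. Because kallisto divides reads between similar transcripts, genes with near-identical copies can share estimated counts.

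Symbols, and transcript lengths for CPM per kb, came from GENCODE M21 (GRCm38), which names 52029 of the 56953 IDs. Ero1a and Ero1b were matched under older symbols, 1 of 2 Ddit3 IDs with no counts was passed over, and Tusc3 was not matched.

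Counts were rounded, filtered with filterByExpr (minimum count 10, minimum total 15), scaled with TMM and tested with edgeR 4.0.16 (quasi-likelihood, no covariates). Each SE was taken as the log2 fold change, without its sign, divided by the root of F. One count equals about 0.018 CPM. The script was tested on simulated data. After subtracting group means, libraries with the same number correlated at 0.467, 0.332 and 0.298 across genes, so, with the numbers in the labels, they were taken as pairs. Libraries with unlike numbers correlated at -0.35 (hypoxia 1 with normoxia 3) to 0.118 (hypoxia 2 with normoxia 3). Subtracting group means forces some unlike numbers below 0 where like numbers lie above it. Variation between libraries (edgeR's BCV) was 10.9%, falling to 5.64% when the replicate number was a block. DESeq2 1.42.0 and limma 3.58.1 (voom) served as alternatives.

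The genes and lists were chosen with earlier results of these data known. Values are given for called genes, the sensors and Xbp1, the 4 most abundant genes per length, Atf4, Ddit3, Ero1a and Ppp1r15a, and the 2 called genes with the smallest p of each further list. Other genes named were chosen after their values were seen.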

Additional observations from a re-analysis of the deposited data

How the results depend on the processing

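The number of libraries and the unstated source of the replicates limit these results, and Derl3 and Nupr1 also rest on few counts. Over 14 other settings Eif2ak3, Herpud1 and Atf4 stayed called in the same direction, and Derl3 and Nupr1 in the 13 that tested them. With the replicate block 6108 genes in all, 8 ER genes as higher and 4 as lower, and 14 and 19 other pathway genes were called, against 3261, 3 and 2, and 5 and 9 without it. The calls it added among the listed genes are named in the text, and it ended none of theirs. Scaling by library size alone gave 6 ER genes and 10 other pathway genes higher. The filter at a mean of 5 CPM gave 2041 calls in all and 5 lower pathway genes: Nupr1 was no longer tested, and Ddit3, Aup1 and Srp68 were tested and missed the threshold. With 1 library left out, all calls ran from 1964 to 3616, ER genes called higher from 1 to 3 and lower from 2 to 3, and other pathway genes called higher from 1 to 8; the cause was not tested. Without both libraries numbered 1, 3 ER genes were higher and 2 lower, but Calr lost its call (edgeR adjusted p = 0.0692) and Hsp90b1 gained one (0.0408). Of the other pathway genes, Ddit3 (0.178), Cnpy3 (0.117) and Srp68 (0.0779) lost theirs in that setting. Creb3l1 (0.0226), Mogs (0.0385) and Ube2j1 (0.0169) gained one. DESeq2 size factors, the DESeq2 Wald test, limma-voom and no filter gave 3 or 4 ER genes higher and 2 lower. Other calls named in the text were also lost: Ddit3 with the filter at 5 CPM (adjusted p = 0.0544), Aup1 and Srp68 with library size alone (0.067 and 0.188) and with that filter (0.0501 and 0.0681), and Cnpy3 and Srp68 with no filter (0.122 and 0.109), all by edgeR. The median log2 fold change of the ER genes ran from 0.016 to 0.132 over all settings, the latter with library size alone, where that of all genes was 0.077.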

Other observations

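PERK is 1 of 4 kinases of eIF2 alpha, and the other 3 were looked up after its values were seen. Eif2ak2 (PKR, itself induced by interferon) fell from 65.7 ± 4.77 CPM in normoxia to 37.0 ± 2.14 CPM in hypoxia (SD, n = 3, edgeR log2 fold change -0.83 with SE 0.08, adjusted p = 0.000131) and was called in all 14 other settings. Eif2ak4 (GCN2, the sensor of amino acid shortage) fell from 33.1 ± 2.24 to 27.6 ± 1.32 CPM (-0.26, SE 0.08, edgeR adjusted p = 0.0457), a call lost in 7 of the 14 other settings (adjusted p up to 0.186). Eif2ak1 (HRI, the sensor of heme shortage) measured 51.6 ± 1.55 CPM in normoxia against 47.3 ± 0.307 CPM in hypoxia, without overlap between the groups and with an edgeR adjusted p of 0.207.

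Creb3l1, which encodes OASIS, a relative of ATF6, measured 5.06, 4.33 and 3.99 CPM in hypoxia against 3.75, 2.79 and 1.74 CPM in normoxia. The groups did not overlap, and the edgeR adjusted p was 0.0698, or 0.00253 when blocked by replicate number.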
